A study of Arabidopsis thaliana with 8 samples.

Results

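ONSEN (ATCOPIA78) is a family of near-identical copia retrotransposons of Arabidopsis, and its transcripts were followed here through the memory phase after a priming heat stress. The members were 8 listed loci (AT1G11265, AT1G21945, AT1G48710, AT1G48720, AT1G58140, AT3G59720, AT3G61330 and AT5G13205), out of 23334 gene loci assigned to probe sets, and every probe set whose gene assignment held at least 1 of them was taken. This gave 2 of 22746 probe sets, 256136_s_at and 264451_s_at. None of the 8 loci had a probe set of its own. The loci were chosen by name, with the differences between primed and unprimed seedlings on these arrays already known, so the members count as selected on the measured differences, which are given as a description and without a test.

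Retrotransposons of this type are copied through an RNA intermediate that starts in a long terminal repeat at the end of the element. The terminal repeats of ONSEN carry sites for heat shock transcription factors, among them HSFA2, so that heat can switch on copies that are otherwise silent. Small RNA and DNA methylation pathways restrict the element, and mutants that lack the small RNA pathway can pass new ONSEN insertions to the progeny of heated plants. Insertions of ONSEN are also known for making genes next to them responsive to heat.

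Primed wild-type Col-0 seedlings were compared with unprimed ones of the same accession after 4, 8, 24 and 48 h of the memory phase, and a pool of seedlings on 1 Affymetrix ATH1 array stood for each of the 8 conditions. The priming stimulus was given to seedlings 5 days old and consisted of 37 °C for 1.5 h, then 22 °C for 1.5 h, then 44 °C for 45 min, with the heat applied in the dark. Unprimed seedlings were harvested at matched times without it. All seedlings were grown on medium with 1% sucrose in 16 h light and 8 h dark at 22 °C. Since no condition was repeated, the variation between pools is unknown, no difference at a single time can be tested, and none has a replicate check.

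Values are log2 expression values normalized between arrays by the authors, on a scale whose lowest value is 2.0. Array medians ranged between 6.99 and 7.08, and 26.3 to 26.9% of the probe sets of an array lay within 0.05 of the lowest value, called the floor here. Where the unprimed array is at the floor, the true difference may be larger than the value given. Green tissue markers had log2 values from 13.61 to 15.43 in primed and from 13.89 to 15.53 in unprimed seedlings, and the 3 pollen markers were at the floor in all arrays. The summed log2 level of 4 root markers lay between 28.71 and 32.12 in primed and between 31.69 and 35.44 in unprimed seedlings, and that of 3 seed storage markers between 6.33 and 9.38 in primed and between 8.76 and 25.08 in unprimed seedlings. The part of these in the values below was not tested, and in whole seedlings fewer cells of a type and less RNA per cell cannot be told apart.

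The signal of both probe sets is shared between copies. Probe set 256136_s_at is assigned to all 8 listed loci and 264451_s_at to 9 loci, of which 7 are on the list. These 7 are common to both probe sets. AT1G48720 is assigned to 256136_s_at alone, and AT3G32415 and AT1G10260, which are not on the list, to 264451_s_at alone. In the RefSeq annotation of TAIR10.1, 7 of the listed loci are pseudogenes, a class that also takes in transposon copies, and AT1G48720 is a protein-coding gene directly next to AT1G48710. Of the listed loci, 5 lie on chromosome 1, 2 on chromosome 3 and 1 on chromosome 5. The deposited annotation does not name ONSEN. It describes AT1G48720 as similar to a rice polyprotein, the kind of protein that a retrotransposon encodes, and holds no text for 264451_s_at. Which of the copies gave the signal cannot be told apart on these arrays.

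ONSEN signal was seen in primed seedlings, whereas every unprimed array gave the floor value. Probe set 256136_s_at had log2 values of 10.08, 9.34, 8.05 and 5.93 in primed seedlings at 4, 8, 24 and 48 h, against 2.0 in unprimed seedlings at each of these times. All 4 primed arrays thus lay above all 4 unprimed arrays, and the primed values became smaller with every interval. Probe set 264451_s_at had log2 values of 9.21 and 6.01 in primed seedlings at 4 and 8 h and 2.0 at 24 and 48 h, against 2.0 in unprimed seedlings at all times. Its primed arrays of 24 and 48 h could not be told from the unprimed ones.

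**Figure D1:**
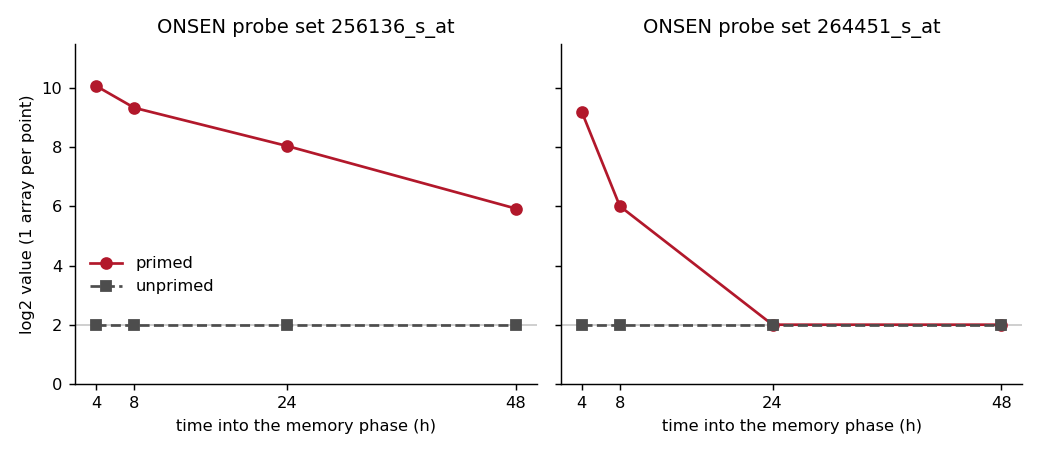
Log2 value (vertical axis) of the ONSEN probe sets 256136_s_at (left) and 264451_s_at (right) in primed (red circles) and unprimed seedlings (grey squares) against hours into the memory phase, with 1 array per point and no error bars. The unprimed arrays stay at the floor of 2.0, and the primed course ends at 5.93 on the left and at 2.0 on the right.

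For 256136_s_at the log2 difference between primed and unprimed seedlings was 8.08, 7.34, 6.05 and 3.93 at 4, 8, 24 and 48 h. On a linear scale the primed level was higher by 271-fold or more at 4 h and by 15.2-fold or more at 48 h. Among all probe sets, 9.36, 7.33, 2.76 and 0.747% were at least 2-fold higher in primed seedlings at 4, 8, 24 and 48 h, and 9.93, 7.91, 1.67 and 0.932% were at least 2-fold lower. At all 4 times 69 probe sets (0.303%) were at least 2-fold higher, 256136_s_at among them, and 0.11% were at least 2-fold lower. The mean of its 4 differences was 6.35, a minimum because all unprimed arrays were at the floor.

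The log2 difference of 264451_s_at was 7.21 at 4 h and 4.01 at 8 h, that is, 148-fold and 16.1-fold or more on a linear scale, and 0.00 at 24 and 48 h. It belonged to the probe sets at least 2-fold higher at both 4 and 8 h, 4.51% of all, and to the 854 of them (3.75% of all) that were not so at 24 or 48 h. Since both arrays of a pair were at the floor at 24 and 48 h, 0.00 is not a measured lack of difference, and a low level would not have been seen.

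Although they share 7 loci, the probe sets had different courses. From 4 to 8 h, the primed value of 256136_s_at changed by -0.74 and that of 264451_s_at by -3.20. From 8 to 24 h the change was -1.29 for 256136_s_at and -4.01 for 264451_s_at, which ended at the floor, so that its true change may be larger. From 24 to 48 h, 256136_s_at changed by a further -2.12. Calculated per hour, its value changed by -0.185 between 4 and 8 h, by -0.0806 between 8 and 24 h and by -0.0883 between 24 and 48 h. The contributions of single loci and of the 3 loci that are not shared to this divergence were not tested.

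Small heat shock proteins (HSPs) are chaperones that bind unfolded proteins, and their courses were set beside those of ONSEN. The 19 small HSP genes were measured by 18 probe sets. At least 2-fold higher in primed seedlings were 16 (88.9%) at 4 h and 15 (83.3%) at 48 h, compared with 9.36 and 0.747% of all probe sets. The median log2 differences of the small HSPs were 7.92 and 4.16, whereas the median of all probe sets was 0.00 at each time. The ONSEN probe set 256136_s_at, at 8.08 and 3.93, lay near these medians. How much of the early difference was still present was expressed as a percent of the log2 difference at 4 h. For 256136_s_at, 90.8% was present at 8 h, and 74.9 and 48.6% at 24 and 48 h. For the 16 small HSP probe sets the medians were 91.6, 76.2 and 52.5%, and at 48 h 9 of them were above and 7 below 256136_s_at. Since the unprimed arrays of 256136_s_at were at the floor, its percents may be too low. The count of small HSPs above and below it depends on this limit.

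The small HSPs differed widely among themselves. HSP21, the plastid small HSP and the gene of the list with the largest mean difference, gave log2 differences of 12.00, 12.62, 11.58 and 8.85 and still had 73.8% of its 4 h difference at 48 h. HSP17.4-CIII had 8.04%. HSP15.7, a peroxisomal small HSP, was nearest to 256136_s_at by the mean absolute deviation of the log2 differences and the fifth by correlation over the arrays, with log2 differences of 7.84, 6.50, 5.97 and 4.02. HSP26.5, an organellar small HSP, had a larger difference at 4 h (11.78) and a similar remainder at 48 h (44.1%). HSP15.4, a cytosolic small HSP with the lowest mean difference of the list, gave -1.38 at 4 h and 0.08 at 48 h. For 264451_s_at, 55.6% of the 4 h difference was present at 8 h, less than for 15 of the 16 small HSP probe sets, and 0.00% at 24 and 48 h, less than for all 16. The exception at 8 h was HSP14.7, with a log2 difference of 1.74 at 4 h and 0.33 at 8 h. The percents of 264451_s_at may be too low as well, since its unprimed arrays were at the floor.

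**Figure D2:**
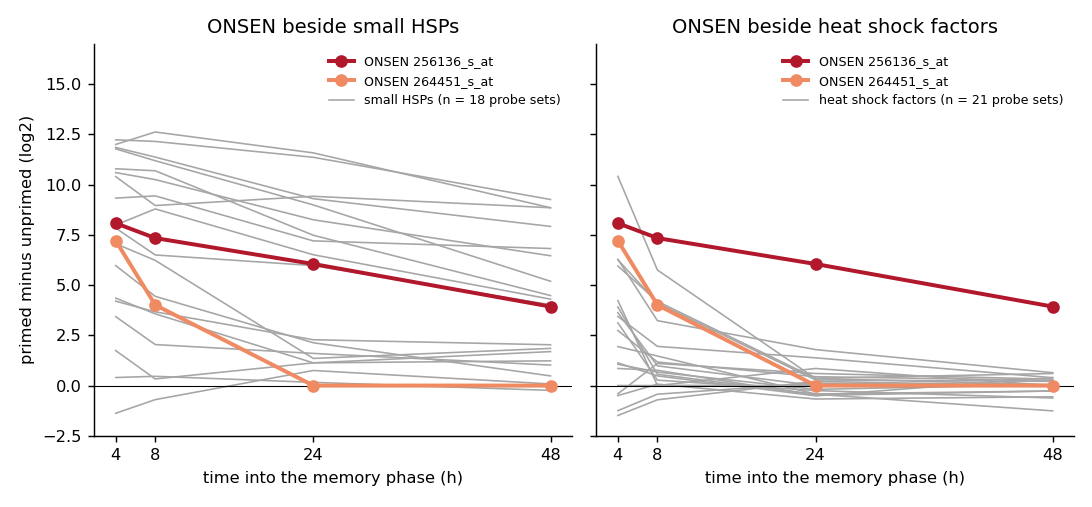
Primed minus unprimed log2 difference (vertical axis) against hours into the memory phase for the ONSEN probe sets (red and orange) beside 18 small HSP probe sets (grey lines, left) and 21 heat shock factor probe sets (grey lines, right), 1 pair of arrays per time. The course of 256136_s_at runs among those of the small HSPs to 3.93 at 48 h, and that of 264451_s_at reaches 0.00 at 24 h.

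Some heat shock factors (HSFs), among them HSFA2, are known activators of ONSEN, and the HSF list used here also held HSFB and HSFC factors. The HSF transcripts that were at least 2-fold higher at 4 h had shorter courses than 256136_s_at. Among 21 HSF probe sets, 13 (61.9%), 8 (38.1%), 2 (9.52%) and 0 were at least 2-fold higher in primed seedlings at 4, 8, 24 and 48 h. The shares of all probe sets were 9.36, 7.33, 2.76 and 0.747%. The median log2 difference of the HSFs was 1.94 at 4 h and 0.00 at 24 and 48 h. At least 2-fold lower were HSFB4 (-1.49) and HSFC1 (-1.25) at 4 h and HSFA7A at 48 h (-1.26), which had been higher by 3.91 at 4 h. These were 9.52 and 4.76% of the list at 4 and 48 h, compared with 9.93 and 0.932% of all probe sets. HSFA2 had log2 values of 13.52, 10.28, 2.75 and 3.57 in primed seedlings at 4, 8, 24 and 48 h, against 3.11, 4.53, 2.40 and 3.53 in unprimed seedlings. At 24 and 48 h its primed values were thus close to the unprimed ones, at times when 256136_s_at was still 6.05 and 3.93 above the floor. As arrays measure transcripts, the activity of the factors was not measured.

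The HSFA1 factors act at the start of the heat response. HSFA1E gave log2 differences of 5.95, 4.19, 0.36 and 0.60, and HSFA1D gave 2.74, 1.17, 0.44 and 0.26. HSFA1A and HSFA1B were higher by 1.13 and 1.06 at 4 h and were within 2-fold at all later times. HSFA3, which acts in the drought and heat response, gave 6.26, 4.11, 0.28 and 0.21. For HSFB2A and HSFB1, members of the class that mostly represses transcription, the log2 differences were 6.28 and 3.44 at 4 h and 1.79 and 1.38 at 24 h, and these were the 2 HSFs higher at 24 h.

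For the 13 HSF probe sets, the median percents of the 4 h difference at 8, 24 and 48 h were 51.4, 0.00 and 3.35%. The corresponding values of 264451_s_at were 55.6, 0.00 and 0.00%. None of the 13 HSF probe sets had as large a remainder as 256136_s_at at 8, 24 or 48 h, the highest values being 75.8, 40.1 and 35.4%.

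**Figure D3:**
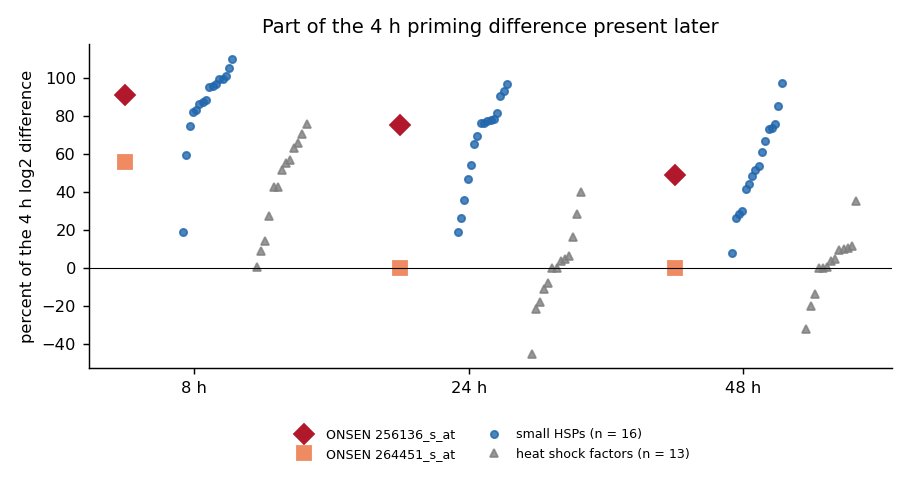
Percent of the 4 h log2 difference (vertical axis) that was present at 8, 24 and 48 h for the ONSEN probe sets (diamond and square), 16 small HSP probe sets (blue circles) and 13 heat shock factor probe sets (grey triangles) that were at least 2-fold higher at 4 h, sorted within each cloud. At 48 h, 256136_s_at (48.6%) lies among the small HSPs and above all heat shock factors, and 264451_s_at is at 0.00%. The percents of ONSEN, HSP21, HSP22.0, HSP17.7-CII and HSFA7B may be too low, as their unprimed arrays were at the floor.

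Genes of DNA methylation and silencing pathways stayed within 2-fold with a single exception, which depended on the control array. The list of 39 genes covered RNA-directed DNA methylation, maintenance of DNA and histone methylation, small RNA production and chromatin silencing. It also held ROS1 and IBM1, which remove methylation marks. It was represented by 36 probe sets, since AGO6, CMT2 and SHH1 have none. At 4, 8 and 48 h none was at least 2-fold higher or lower, and at 24 h DRD1, a chromatin remodeller needed for RNA-directed DNA methylation, was lower by 1.04 on the log2 scale. Against the mean of all unprimed arrays, none was lower at 24 h, whereas 1 was higher and 1 lower at 4 h, and with quantile normalization 1 was higher at 4 h. Median log2 differences over these 36 probe sets were 0.00, -0.15, -0.08 and -0.04 at 4, 8, 24 and 48 h. IDN2, a double-stranded RNA-binding protein of the same pathway that shares its probe set with another gene, gave -0.94 at 4 h and -0.76 at 8 h. NRPD2, the second largest subunit of RNA polymerases IV and V, also on a shared probe set, gave -0.98 at 24 h. RDR6, which makes double-stranded RNA for small RNAs, gave -0.58 at 4 h and -0.54 at 8 h. These 4 had the largest mean differences in size, and other genes gave positive values. SUVH2, a methyl-DNA-binding protein that recruits RNA polymerase V, gave 0.95 at 4 h and -0.43 at 8 h. HDA6, a histone deacetylase, gave 0.62 at 4 h and 0.69 at 8 h, and CMT3, a DNA methyltransferase, gave 0.62 at 4 h and 0.54 at 24 h. The background share was 9.93% lower at 4 h and 1.67% lower at 24 h. Some of the 36 carried little information. NRPD1 lay between 2.01 and 2.12 in all arrays, near the floor, and FAS2 was at 2.0 in both 4 h arrays. As arrays measure transcripts, the activity of these pathways was not measured.

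Other probe sets found by transposon search words stayed within 2-fold with a single exception, while some pseudogene loci that the words did not find gave larger values. The words transposon, retrotransposon, transposase, integrase, copia, gypsy or LINE occurred in the deposited or RefSeq annotation of 41 further probe sets, some of them of host genes such as ALB4. Of these, 27 were at the floor in all 8 arrays and 14 were above it in at least 1. Among the 14 were ALB4 and also MRL7 and MRL7-L, whose annotation names a thioredoxin-like fold, so that not all of them measure transposons. None was at least 2-fold higher at any time, but 2 were so at 4 h against the mean of all unprimed arrays. The single probe set at least 2-fold lower was that of 2A6 and the retroelement Sadhu4-2, with a log2 difference of -1.05 at 4 h, and against that mean none was lower. Of all probe sets, 9.36, 7.33, 2.76 and 0.747% were higher at 4, 8, 24 and 48 h, and 9.93% were lower at 4 h. AT3G42250, which was picked after its values had been seen because its deposited annotation calls it similar to AT1G48720, was at 2.01 in primed and at 2.0 in unprimed seedlings at 4 h and at the floor in all other arrays. AT3G48020, annotated as related to an IS10 transposase, gave 0.95 at 4 h, and SADHU10-1, another retroelement, gave 0.61. A probe set at the floor in every array carries no information on priming, so the low counts are not a sign of a weaker response.

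The 2 ONSEN probe sets were also set beside the probe sets, members left out, whose loci are annotated only as pseudogenes, a comparison chosen after the values had been seen. Of the members, 264451_s_at alone is of this class, as 256136_s_at is also assigned to the protein-coding AT1G48720. Of 901 such probe sets, 833 were at the floor in all arrays. At 4 h 14 (1.55%) were higher by 2-fold or more and 4 (0.444%) lower, compared with 9.36 and 9.93% of all probe sets. Probe sets at the floor in all arrays cannot be counted as higher or lower, and only 68 of the 901 were above it somewhere. The smaller shares are therefore not a sign of a weaker response. At 8 h 8 (0.888%) were higher and 6 (0.666%) lower, compared with 7.33 and 7.91% of all. At 24 h 4 (0.444%) were higher and 2 (0.222%) lower, compared with 2.76 and 1.67%. At 48 h 3 (0.333%) were higher and 0 lower, compared with 0.747 and 0.932%. A single one of the 901 was higher at all 4 times, a probe set of AT5G39060 and 3 further loci, with log2 differences of 1.23, 1.82, 2.02 and 1.32. The largest difference in size at 4 h was 7.27, for a probe set of AT4G20500 and AT4G20730 annotated as filament protein-related, which gave 4.64 at 8 h and -0.16 at 24 h. MUG2, a domesticated transposase gene, gave 4.49 at 4 h and 1.75 at 8 h. AT2G04460, annotated as similar to a pol polyprotein, had a log2 value of 2.0 in primed and 6.92 in unprimed seedlings at 8 h, a difference of -4.92, and gave -0.64 at 4 h. AT2G11140 was lower at 4 h (-1.57) and 8 h (-1.97) and higher at 48 h (1.64).

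Because ONSEN insertions can affect genes beside them, the 3 annotated genes on each side of each listed locus were examined. Of 42 such genes, 23 had a probe set of their own, and 6 of the 23 were at the floor in all arrays. At 4 h 6 (26.1%) were higher by 2-fold or more in primed seedlings and 6 (26.1%) lower, compared with 9.36 and 9.93% of all probe sets. At 8 h 2 (8.7%) were higher and 1 (4.35%) lower, compared with 7.33 and 7.91% of all. At 24 h 1 (4.35%) was higher and none lower, compared with 2.76 and 1.67%. At 48 h none was higher or lower, compared with 0.747 and 0.932%. With so few genes, the counts after 4 h are near those shares. Of the 7 genes with a probe set that lie directly next to a listed locus, 4 were higher at 4 h.

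The largest differences were those of AT1G11270 and AT5G13200. AT1G11270, annotated as an F-box protein gene, precedes AT1G11265 and overlaps it in the annotation. Its log2 values were 11.84, 8.79, 3.67 and 4.21 in primed seedlings at 4, 8, 24 and 48 h, against 4.21, 3.88, 4.21 and 4.33 in unprimed seedlings. The primed arrays were far above the unprimed ones at 4 and 8 h and not at 24 or 48 h, a course similar to that of 264451_s_at. As the spans overlap, the part of transcripts of the element in this signal was not tested. AT5G13200, annotated as a GRAM domain protein gene related to ABA-responsive proteins, lies directly before AT5G13205. It had log2 values of 13.67, 11.42, 6.91 and 6.01 in primed seedlings, against 6.17, 4.79, 5.64 and 5.71 in unprimed seedlings. The log2 differences were 7.50, 6.63, 1.27 and 0.30, so that AT5G13200 was the single neighbour at least 2-fold higher at 24 h.

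The other 4 neighbours that were higher at 4 h were within 2-fold at 8 h. AT1G58150, of unknown function, and JAX1, a jacalin lectin known from resistance to potexviruses, both lie after AT1G58140 and gave log2 differences of 2.32 and 2.41 at 4 h. AT3G59730, a lectin receptor kinase gene directly after AT3G59720, had a log2 value of 4.28 in the primed 4 h array and was at the floor in the unprimed one. SKIP4, an F-box protein gene after AT3G61330, was higher by 2.0 at 4 h. Lower values at 4 h were found for the sugar transporter gene STP1 (-1.36), CRR22, a pentatricopeptide repeat protein gene (-1.19), and AT1G11300 (-1.61), all within 3 genes of AT1G11265. The GH3 family gene AT1G48690 (-1.56), the bZIP gene AT1G58110 (-1.49) and AT3G61310 (-1.41), annotated as a DNA-binding protein gene, were lower as well. At 8 h AT1G11300 was lower by 1.46. No neighbour with a probe set of its own was at least 2-fold higher at 48 h, when 256136_s_at was higher by 3.93.

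**Figure D4:**
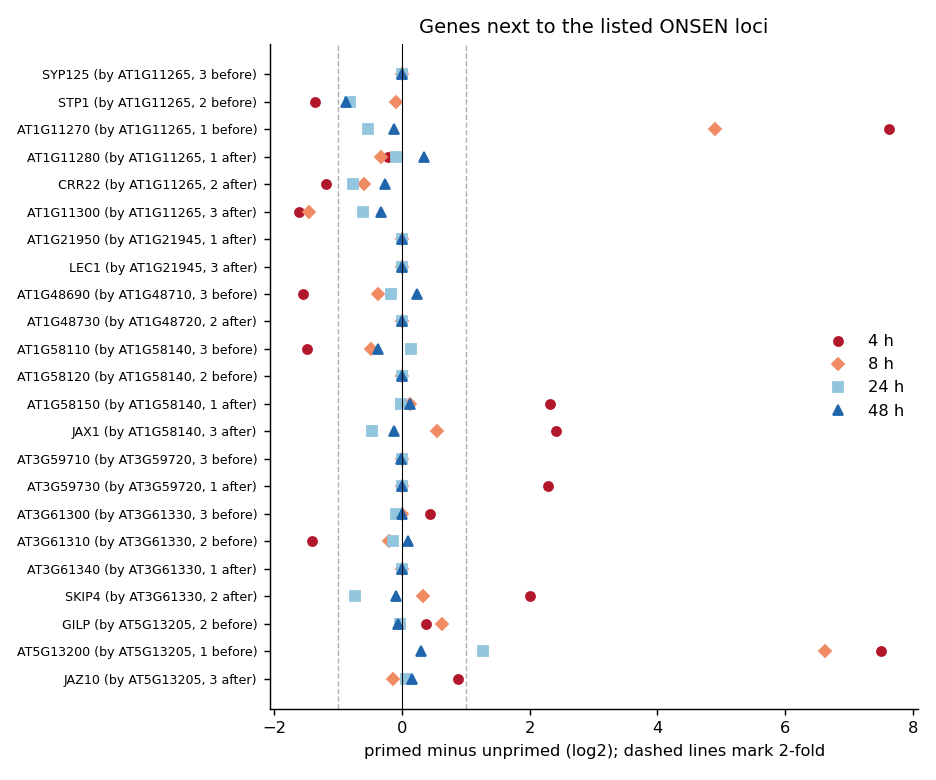
Primed minus unprimed log2 difference (horizontal axis) at 4, 8, 24 and 48 h for the 23 neighbouring genes with a probe set of their own, each labelled with the listed locus it lies by and the number of genes before or after it; dashed lines mark 2-fold. AT1G11270 and AT5G13200 stand out at 4 h (7.63 and 7.50) and 8 h (4.91 and 6.63).

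Genes with a course like that of ONSEN were searched among 21194 probe sets assigned to 1 gene. Likeness was measured as the mean absolute deviation of the 4 log2 differences from those of the ONSEN probe set, which are themselves minimum values. For 256136_s_at the nearest were HSP15.7 (deviation 0.31), GOLS1, a galactinol synthase (0.38), AT1G72660, annotated as a GTP-binding protein (0.59), HSP23.6, a mitochondrial small HSP (0.59), and AT4G21323, a subtilase (0.89). By Pearson's r over the 8 arrays, given as a description among 2874 probe sets with a range of at least 2 on the log2 scale, the nearest were HSP26.5 (0.9985), HSP17.7-CII (0.996), AT1G72660 (0.9944), HSP17.4-CI (0.9932) and HSP15.7 (0.993). These points share the contrast of 4 high primed and 4 low unprimed arrays.

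For 264451_s_at, examined in the same way after its values had been seen, other genes were nearest. They were CYP71B10, a cytochrome P450 (0.22), SAP10, an AN1-type zinc-finger protein (0.25), the zinc-finger transcription factor ZAT6 (0.30), AT5G53680, with an RNA recognition motif (0.32), and ERDJ3A, a J-domain co-chaperone of the endoplasmic reticulum (0.32). CYP71B10 gave log2 differences of 6.82, 4.46, 0.00 and -0.03, and ZAT6 gave 7.28, 4.86, -0.19 and 0.09. The ONSEN probe sets themselves lay 3.54 apart by the mean absolute deviation of the differences. No gene could therefore be among the 5 nearest to both, and the lack of overlap is no result.

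**Figure D5:**
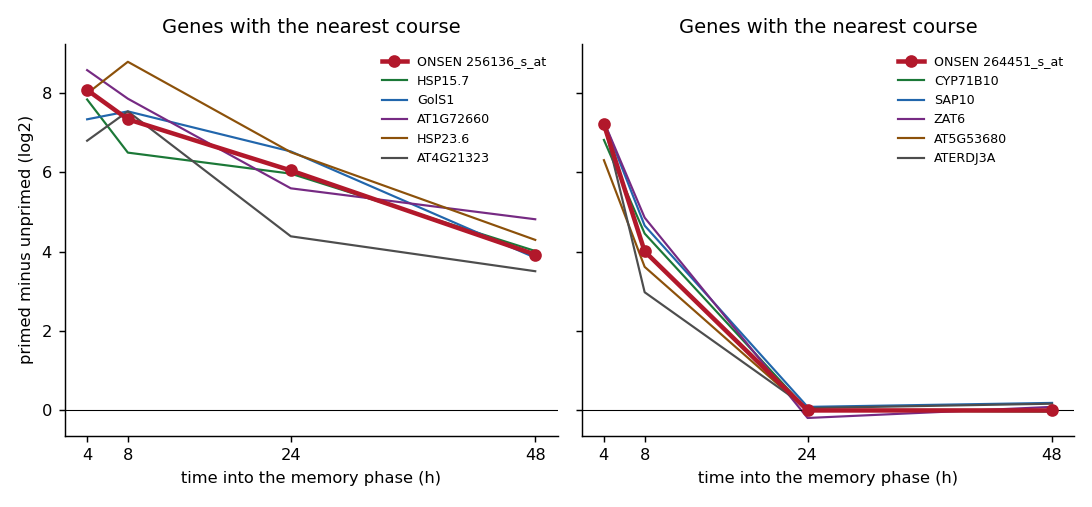
Primed minus unprimed log2 difference (vertical axis) against hours into the memory phase for each ONSEN probe set (red, with points) and the 5 genes with the smallest mean absolute deviation from it (thin lines), 256136_s_at on the left and 264451_s_at on the right. The genes were chosen for this likeness. Those on the left, among them HSP15.7 (4.02), are therefore still higher at 48 h, and those on the right, among them CYP71B10 (-0.03), are not.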

How the data were processed

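RNA of whole Col-0 seedlings was hybridized to 8 Affymetrix ATH1 arrays, 1 per condition. The values are log2 expression values that the authors had normalized before they deposited them, for which the processing notes of the submitters list GCRMA as well as RMA. Columns with the authors' own differences between arrays were left unused. A genome build is not stated in the sources read. Both deposited tables (2) held equal values in every cell. Of 22810 probe sets, 64 controls were left out, as was 1 row without a probe set name. The unprimed log2 value was subtracted from the primed value of the same time, and a difference of at least 1 in size (2-fold) was counted, after the limit in the study's methods. No test was run, because each condition has 1 array and the members were chosen on this contrast. A gene with several probe sets of its own (NRPE1 and DRM2) was represented by the brighter one. A shared probe set was used where a gene had no other, and it was counted once. Gene order, biotypes and symbols came from RefSeq (TAIR10.1), in which 22985 of 23334 gene IDs were found. The counting was checked on simulated data. Named were the members, the HSFA1 genes and HSFA2, neighbours past 2-fold, the genes of the lists with large mean differences in size, and the 5 genes nearest in course by each measure. The members, lists and rules were chosen with earlier results of these data known. Alternatives were quantile normalization, centring on 7 reference genes, the mean of the 4 unprimed arrays as control, a floor raised to the 30th percentile (2.39), leaving out dim probe sets or a pair of arrays, 1.5-fold and 4-fold limits, the other deposited table, and other choices of transposon probe sets. The work used Python 3.11.15, pandas 2.3.3 and numpy 2.4.6.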

Additional observations from a re-analysis of the deposited data

How the results depend on the processing

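The ONSEN differences at single times shifted by at most 0.39 on the log2 scale under the 5 alternatives (40 values), and none crossed the 2-fold limit. All shifts were below 0.45, the SD of the difference between the unprimed arrays of 48 and 24 h over probe sets above the floor. The other deposited table, equal in every cell, could not shift them. Nor could the mean of the 4 unprimed arrays, as all unprimed ONSEN values were 2.0. The shift of 0.39 was set by the raised floor itself (2.39 in place of 2.0). It had to occur wherever the primed value was higher, and 0.00 had to stay where both arrays were at the floor. Only quantile normalization and centring on the reference genes were free to shift the differences otherwise. The percents of the 4 h difference moved by less than 10 percentage points, and those of ONSEN could move only with the raised floor. The mean difference of 256136_s_at was 5.77 without the 4 h pair and 7.16 without the 48 h pair, against 6.35 over all 4 times. That of 264451_s_at was 1.34 without the 4 h pair and 3.74 without either the 24 h or the 48 h pair, against 2.80. With 1.5-fold and 4-fold limits, 3605 and 806 probe sets of all were higher and 3932 and 625 lower at 4 h, 3432 and 419 higher and 3380 and 424 lower at 8 h, 1655 and 124 higher and 1430 and 57 lower at 24 h, and 577 and 42 higher and 903 and 33 lower at 48 h. Against the mean over all 4 unprimed arrays, the counts at 24 h were 397 higher and 208 lower, and at 48 h 275 probe sets were higher. Without the 24 h pair, whose unprimed array was high in seed storage transcripts, 77 in place of 69 probe sets were higher and 48 in place of 25 lower at all remaining times, an alternative chosen after seeing the data. Of 224 counts of the lists under alternatives, 48 differed by over 1.5 times or changed to or from 0. Of these, 7 came from taking the pseudogene loci in place of the transposon list. With a 1.5-fold limit, 3 silencing probe sets were higher and 5 lower at 4 h, against 0 and 0. Against the mean over all unprimed arrays, 1 heat shock factor in place of 2 was higher at 24 h. The differences pair the primed and unprimed arrays of a time, and no replicate number is shared between arrays of a condition, since each has 1 array. No p over the 4 times is given, because the members were chosen on this contrast. A signal near the floor of 2.0 limits what can be said of ONSEN in unprimed seedlings and of 264451_s_at after 8 h.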
